A study of Mus musculus with 6 samples.

Results

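The serpin and Kazal protease inhibitor genes of liver were compared between GHRH-KO mice and littermate controls. Members were all genes whose symbol in the array annotation begins with Serpin or Spink, with Serpina7 left out, and each was read by the probe set of its own with the highest mean over the 6 arrays. This gave 47 members of 18193 genes with a probe set of 1 gene. They comprised 13 serpins of clade A, 18 of clade B, 1 each of clades C, D, G and H, 2 each of clades F and I, and 8 Spink genes, where the clade is the letter after Serpin in the symbol. The reference gene table holds 81 such genes, of which 6 (Serpina1a, Serpina1d, Serpina1e, Serpinb9e, Serpinb9f and Serpinb9h) were measured only by probe sets shared with relatives and 28 were not analysed here.

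An inhibitory serpin offers a protease an exposed loop as bait, and when the loop is cut the serpin changes shape and traps the enzyme in an inactive complex. Some members have left this role and carry hormones or assist the folding of collagen instead. Hepatocytes secrete most serpins of blood plasma, which hold coagulation, fibrinolysis, complement and the proteases of neutrophils in check, while clade B serpins mostly stay inside cells. Kazal inhibitors, encoded by the Spink genes, are small proteins that plug the active site of trypsin-like proteases.

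Liver RNA came from 3 male mice with a disrupted Ghrh gene (GHRH-KO, replicates 4, 5 and 6) and from 3 male wild-type littermates (control, replicates 1, 2 and 3). GHRH, a hormone of the hypothalamus, drives pituitary growth hormone (GH) release, so the mutants are a model of isolated GH deficiency in the whole body and not of a defect in liver. All mice shared a mixed C57BL6 and 129SV background, were 10 months old and had fasted for 6 to 8 h, and each was hybridized to an Affymetrix mouse genome array of its own. Values are RMA values (robust multichip average, background-corrected and quantile-normalized, log2 scale), and a difference is GHRH-KO minus control on that scale. A gene was called raised or lowered at FDR < 0.05 in limma with a fold change above 1.5 or below 0.67. The Ghrh probe set lay between 4.40 and 4.75 in all arrays and could not check the genotype in liver, so 4.75 served as the upper edge of background. Of 23 tested GH-dependent genes of male liver, 5 were raised and 9 lowered, with Igf1 at -5.58, and all 7 measured hepatocyte markers had means between 12.51 and 14.56 in both genotypes. GHRH-KO replicate 5 and control replicate 2 stood apart, since the interquartile range of probe set deviations from the median was 0.357 and 0.316 in them and 0.185 to 0.249 elsewhere.

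Of the 47 members, 24 were bright enough to be tested, and 4 of these were raised (Spink1, Serpinb8, Serpinh1 and Serpina6) while 1 was lowered (Serpina11). Raised members made up 16.7% of those tested and lowered members 4.17%, beside 0.786% and 0.97% of all 12469 genes tested. All GHRH-KO arrays lay above all control arrays in 4 members and below them in 2 (Serpina11 and Serpinf1), beside 12.7% and 15.7% of all genes. The 24 differences ran from -2.41 to 5.28 with a median of 0.05, and the median of all genes was 0.0033. Spink1, Serpinb6b, Serpina9 and Serpina4-ps1 reached the tested set only through the genotype in which they were brighter, so these shares are a description, and among the other 20 members 3 were raised and 1 was lowered.

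**Figure D1:**
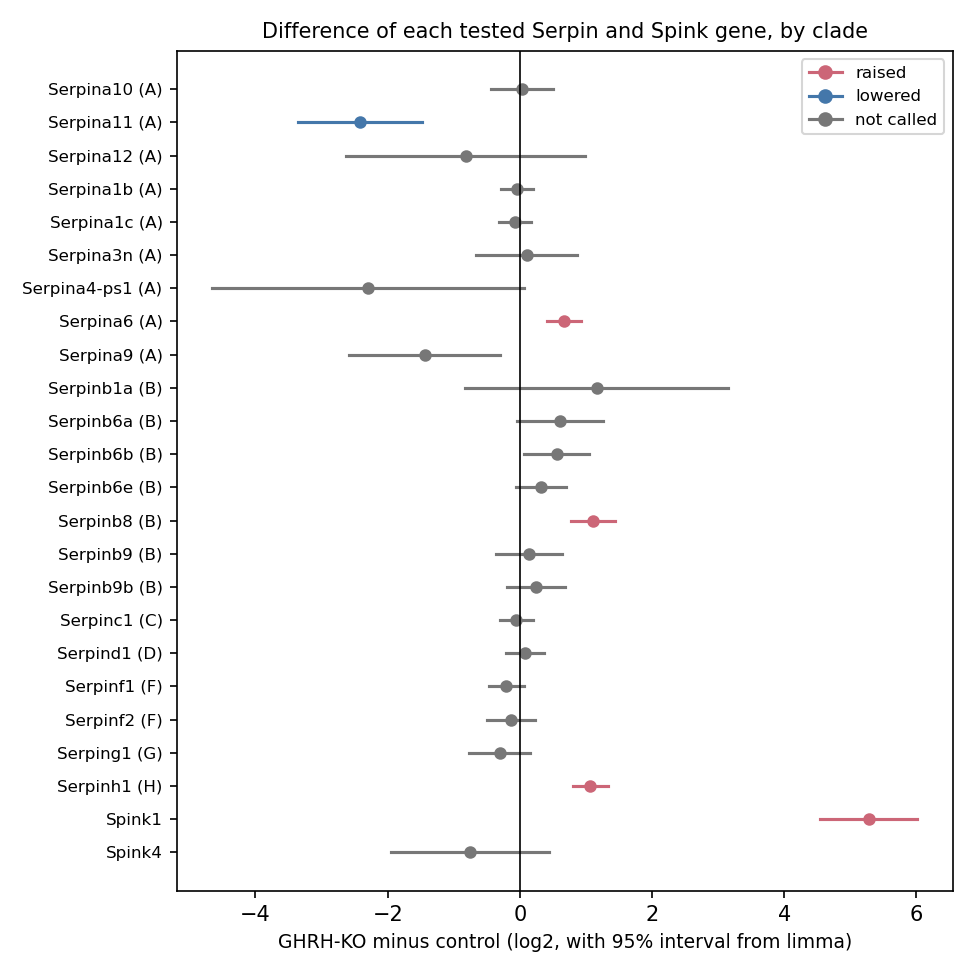
Difference of each tested member between genotypes (GHRH-KO minus control, log2, horizontal axis), ordered by clade with the clade letter in brackets; points are limma estimates and lines are 95% intervals. Spink1 stands far to the right at 5.28 and Serpina11 to the left at -2.41, while the 7 clade B genes all lie to the right of 0 and most other intervals span it. Spink1, Serpinb6b, Serpina9 and Serpina4-ps1 were tested only through the genotype in which they were brighter.

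Among the carriers of clade A, Serpina6 was raised. It encodes corticosteroid-binding globulin, the plasma carrier of glucocorticoids, and is a serpin without inhibitory activity. Its RMA values were 11.96, 12.05 and 11.96 in the controls and 12.74, 12.56 and 12.68 in GHRH-KO mice. All GHRH-KO arrays were above all control arrays, with a narrow spread in both genotypes (SD 0.05 and 0.09, n = 3 each). The difference was 0.67 (SE 0.11, adjusted p = 0.0355 from limma), or 1.59-fold. Leaving out any single array kept the difference between 0.63 and 0.72 but put the adjusted p between 0.0509 and 0.145, so the call was lost each time.

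Serpina11 was the only member called as lowered. It encodes a secreted serpin of liver whose target is not settled. The controls read 11.59, 12.35 and 11.21 and the GHRH-KO mice 10.06, 8.77 and 9.08. The groups did not overlap, and GHRH-KO replicate 4 stood above the other two mutants. The difference was -2.41 (SE 0.40, adjusted p = 0.0385), so that the transcript was 5.32 times lower. The call was lost when any array other than GHRH-KO replicate 4 was left out, with differences of -2.79 to -2.09 and adjusted p of 0.0237 to 0.139 over the 6 omissions. Because the liver was measured in bulk, fewer cells of a type and less RNA per cell cannot be told apart here or for any other member.

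The 250 bases before the transcription start of Serpina11 are shown because this gene was the lowered member and its promoter holds a match to TTCNNNGAA, the site bound by STAT5, a factor activated by GH, and by other STAT factors. The sequence is from RefSeq (GRCm38.p6, chr12:103989958-103990207, minus strand, upstream of the gene) and the match is in capitals.
Serpina11 promoter: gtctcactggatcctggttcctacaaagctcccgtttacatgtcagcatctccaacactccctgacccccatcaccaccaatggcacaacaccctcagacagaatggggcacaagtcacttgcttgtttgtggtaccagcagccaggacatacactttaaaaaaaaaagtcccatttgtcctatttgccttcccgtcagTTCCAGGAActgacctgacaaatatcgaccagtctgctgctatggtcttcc
The pattern TTCNNNGAA is the same on both strands, and the match begins 51 bases before this start and 65 bases before a second annotated start. TTCNNNGAA occurred in 8.3% of all 32851 RefSeq promoter windows of 300 bases and in 8 of 41 windows of the members (19.5%). Serpina11 and Serpinb2 each gave more than 1 of these 8 windows, with the same site. Counted by gene, it occurred in 6 of the 34 members with a window, beside 2582 of 27025 genes in all. Serpina11 and Serpinb6a were the tested genes among these 6, and Serpina1f, Serpina3i, Serpinb2 and Serpinb9c lay at background. GTTAATNAT, the site bound by HNF1, a factor of liver, was searched on both strands as well and occurred in 0.801% of all windows and in 1 of the 41, that of Serpini2. A match to these letters is a description of the sequence and not a measured site.

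**Figure D2:**
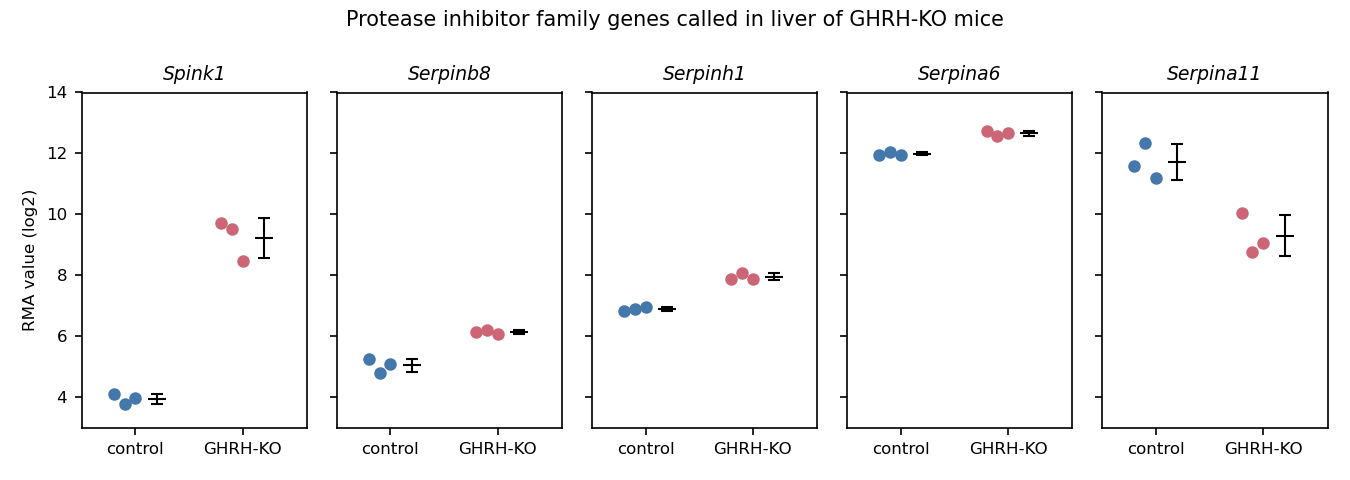
RMA values (log2, vertical axis) of the 5 called members in each array, with control in blue and GHRH-KO in red; the black bars are the mean and SD of 3 arrays. The groups are apart in every panel, and the control arrays of Spink1 lie at 3.79 to 4.10, below the upper edge of background at 4.75.

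Of the antiproteases of clade A that hepatocytes secrete in bulk, those read here, Serpina1b, Serpina1c, Serpina3n and Serpina10, did not pass the threshold. Serpina1b and Serpina1c encode forms of alpha-1-antitrypsin, the plasma inhibitor of neutrophil elastase, and were the brightest members of the family. Serpina1c read 14.49, 14.52 and 14.59 in controls and 14.45, 14.50 and 14.43 in GHRH-KO mice. These ranges overlapped, with a difference of -0.07 (95% interval -0.31 to 0.17). Serpina1b differed by -0.05 (95% interval -0.29 to 0.19). Both lay close to the highest value of any probe set, 14.5331 to 14.6956 per array, so these probe sets leave little room to show a difference. The Serpina1 genes are near-identical copies and their reads on the array are not certain to be separate. A probe set that the annotation shares among Serpina1e, Serpina1c and Serpina1b read 11.94, 12.24 and 12.08 in controls and 11.52, 11.43 and 11.60 in GHRH-KO mice, all below the controls, and its difference of -0.57 (SE 0.12) had an adjusted p of 0.0814. The set shared by Serpina1d and Serpina1a differed by -0.02.

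Serpina3n, an inhibitor released in the acute phase response, varied more between animals than between genotypes. It read 11.11, 11.50 and 10.22 in controls and 11.26, 11.12 and 10.74 in GHRH-KO mice, where the control range enclosed all GHRH-KO values. The difference was 0.10 (95% interval -0.66 to 0.86, adjusted p = 0.895), and became -0.26 without control replicate 3. Of 26 other acute phase genes tested, 1 was raised, Hamp2 of the hepcidin family (2.91, adjusted p = 0.0268), and none was lowered, with a median of 0.12. Serpina10, the protein Z-dependent inhibitor of factor X, read 12.32, 12.45 and 12.02 in controls and 12.67, 12.05 and 12.16 in GHRH-KO mice, and these ranges overlapped, with a difference of 0.03 (95% interval -0.44 to 0.50).

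Serpina9, Serpina12 and Serpina4-ps1 had wide control values. Serpina9, first known from germinal centre B cells, read 4.31, 6.37 and 5.51 in controls and 3.61, 4.36 and 3.91 in GHRH-KO mice. The lowest control lay between the GHRH-KO values, all of which were under the background edge. Its difference of -1.44 had an unadjusted interval of -2.58 to -0.30 and an adjusted p of 0.192, and became -0.95 without control replicate 2. Serpina4-ps1, a transcript named as a pseudogene, read 4.24, 8.85 and 6.64 in controls and 4.10, 4.40 and 4.36 in GHRH-KO mice. Control replicate 1 was as low as the mutants while the other two were far above them, and the difference of -2.29 (95% interval -4.65 to 0.07) had an adjusted p of 0.288. Omitting control replicate 2 gave -1.15, and omitting control replicate 1 gave -3.46. Its remaining probe sets gave -1.73 and -2.81, neither of them called. In the set at -2.81 every GHRH-KO array, at 3.15 to 3.40, lay below every control. Control replicate 1 was also at background there, at 3.65. Serpina12, or vaspin, an inhibitor of kallikrein 7 known from fat tissue, read 6.9971, 8.19 and 10.27 in controls and 6.9965, 7.81 and 8.18 in GHRH-KO mice. These values overlapped, with a difference of -0.82 (95% interval -2.63 to 0.99) that turned to 0.07 when control replicate 3 was left out and to -1.57 when control replicate 1 was.

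All 13 clade A genes lie on chromosome 12. In their order along it, Serpina11, Serpina9, Serpina12 and Serpina4-ps1 follow each other and were the 4 members of the clade with the most negative differences, a run that was chosen after the values were seen. Serpina11 alone among them was called. Its measured neighbour on the other side, Serpina1c, was at -0.07 but lay close to the highest value of any probe set. The dimmer probe set shared among Serpina1e, Serpina1c and Serpina1b was at -0.57. Serpina9 and Serpina4-ps1 reached the tested set only through their brighter controls. Control replicate 1 was the lowest control in Serpina9, Serpina12 and Serpina4-ps1 but not in Serpina11, where control replicate 3 was lowest. Serpina1f, Serpina5, Serpina3a and Serpina3i were not tested, with means at background in both genotypes.

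**Figure D3:**
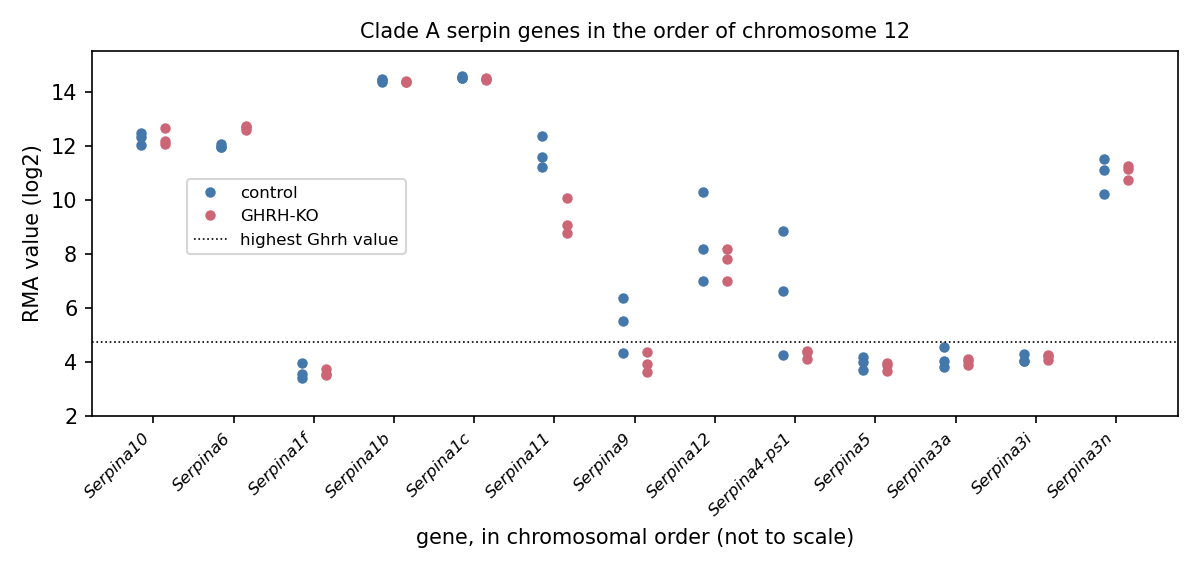
RMA values (log2, vertical axis) of the 13 clade A genes in each array, placed in their order on chromosome 12 with no scale of distance; control is blue, GHRH-KO is red and the dotted line is the highest Ghrh value, 4.75. Serpina1b and Serpina1c sit together at the top in both genotypes, while Serpina11 and the 3 genes after it have lower GHRH-KO means and widely spread controls.

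The plasma serpins of clades C to G differed little between genotypes. Serpinc1 encodes antithrombin, the main brake on thrombin, and read 13.52, 13.48 and 13.55 in controls and 13.40, 13.47 and 13.53 in GHRH-KO mice. The ranges overlapped, and the difference was -0.05 (95% interval -0.30 to 0.19). Serpind1, heparin cofactor II, which also inhibits thrombin, read 12.15, 11.91 and 12.19 in controls and 12.19, 12.06 and 12.23 in GHRH-KO mice, and differed by 0.08 (95% interval -0.22 to 0.37) with overlapping groups. Serpinf2 encodes the plasmin inhibitor alpha-2-antiplasmin, and its values of 12.52, 12.55 and 12.42 in controls and 12.57, 12.07 and 12.45 in GHRH-KO mice overlapped as well, with a difference of -0.14 (95% interval -0.49 to 0.22).

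Serping1, the C1 inhibitor that restrains complement and plasma kallikrein, read 13.19, 13.22 and 12.88 in controls and 13.18, 12.71 and 12.48 in GHRH-KO mice. Replicate 4 was level with the controls while replicates 5 and 6 were lower, and the difference of -0.31 (95% interval -0.78 to 0.16) had an adjusted p of 0.445. Serpinf1, or pigment epithelium-derived factor, a serpin that inhibits no protease, read 12.86, 12.95 and 12.90 in controls and 12.77, 12.56 and 12.76 in GHRH-KO mice. Every GHRH-KO array lay below every control, yet the difference was only -0.21 (SE 0.11, adjusted p = 0.378). A second Serpinf1 probe set read 6.39 in GHRH-KO replicate 5 and 11.15 to 11.79 in the other 5 arrays, and its difference of -1.81 (SE 1.26) became -0.14 without that array. For the 9 plasma serpins of clades A, C, D, F and G that were not called, the differences ran from -0.31 to 0.10 and the adjusted p from 0.378 to 0.953.

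**Figure D4:**
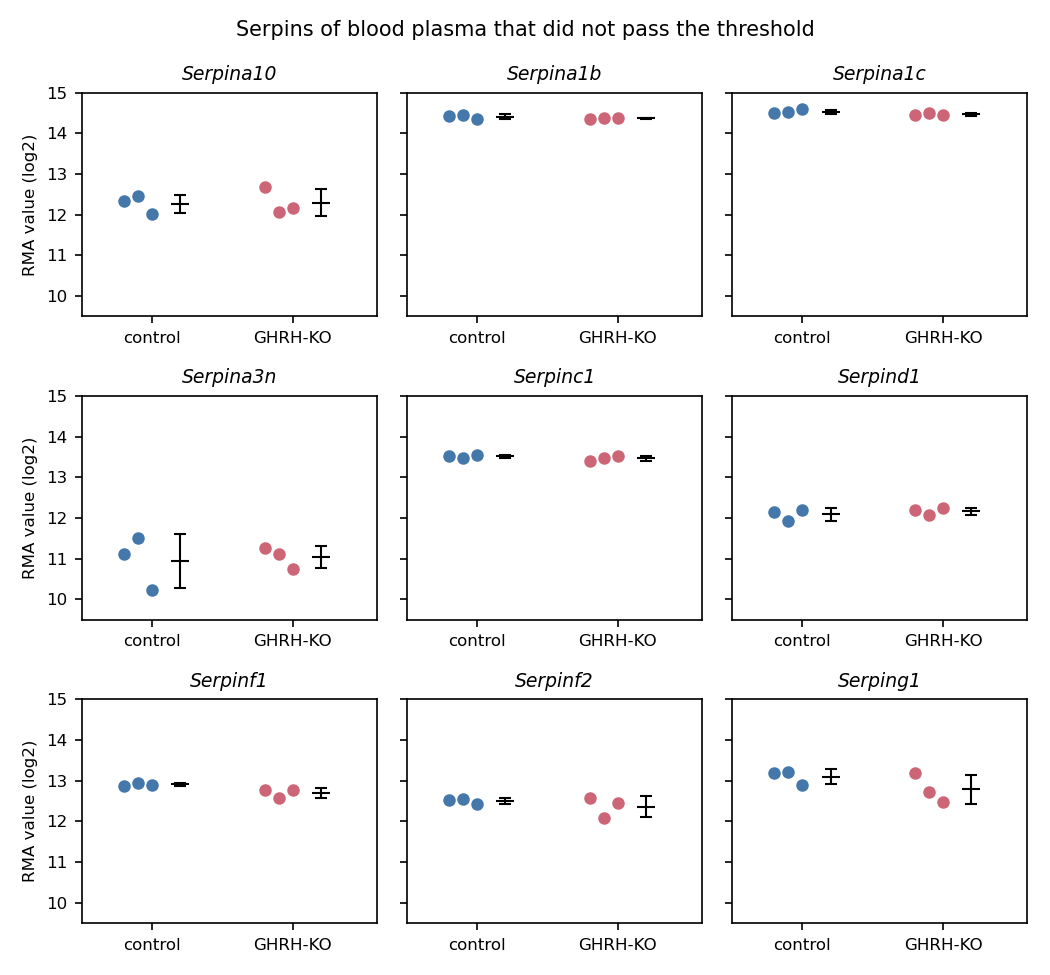
RMA values (log2, vertical axis) of 9 bright plasma serpins in each array, with control in blue and GHRH-KO in red; the black bars are the mean and SD of 3 arrays. The groups overlap in 8 of the 9 panels, and in Serpinf1 the GHRH-KO arrays lie just below the controls.

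A list of proteases, many of them held in check by plasma serpins, was read beside these inhibitors. Htra1 and the membrane proteases Hpn, St14, Tmprss2 and Tmprss6 were part of it. Of 21 tested, 1 was lowered and none was raised, and in 11 every GHRH-KO array lay below every control, beside 15.7% of all genes. Their median difference was -0.35. F13b, a subunit of factor XIII without protease activity that the list also held, was left out of these counts. The lowered gene was F11, coagulation factor XI, at -2.13 (SE 0.31, adjusted p = 0.0266). F2, which encodes the thrombin precursor, was at -0.02, and Masp1, a protease of the lectin pathway of complement, was at -0.76 (adjusted p = 0.0865). Another list held protease inhibitors outside the serpins, such as the cystatins, the tissue inhibitors of metalloproteinases and the inter-alpha-trypsin inhibitors. Of 25 tested, none was called and the median was -0.07. In 2 of them every GHRH-KO array lay above every control and in 8 below, beside 12.7% and 15.7% of all genes.

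In clade B, 7 of 18 genes were tested and Serpinb8 was raised. It encodes an intracellular serpin that can inhibit furin, the protease that trims proproteins. Its values were 5.24, 4.80 and 5.10 in controls and 6.16, 6.21 and 6.09 in GHRH-KO mice. The groups were separated by a gap wider than the spread of either, although the controls lay only just above background. The difference was 1.11 (SE 0.14, adjusted p = 0.0168), or 2.15-fold. A dimmer Serpinb8 probe set that was not tested read 3.83, 3.75 and 4.41 in controls and 4.62, 4.83 and 5.10 in GHRH-KO mice, again with all mutants above all controls. The call was lost without control replicate 3, GHRH-KO replicate 4 or GHRH-KO replicate 6, with an adjusted p of up to 0.0674 and differences of 0.98 to 1.20 over the 6 omissions.

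The other 6 tested genes of clade B all had positive differences and were not called. Serpinb1a, which inhibits neutrophil elastase and cathepsin G, read 8.55, 5.41 and 8.90 in controls and 8.48, 8.91 and 8.95 in GHRH-KO mice. Control replicate 2 alone stood apart, and its second probe set gave the same picture with 4.08 in that array and 6.13 to 6.72 in the others. The difference of 1.16 (SE 0.84, adjusted p = 0.494) became 0.05 without control replicate 2. Serpinb6a, an inhibitor of cathepsin G, read 8.07, 6.92 and 7.60 in controls and 7.98, 8.20 and 8.22 in GHRH-KO mice, with control replicate 1 inside the mutant range and a difference of 0.61 (95% interval -0.04 to 1.26) that became 0.30 without control replicate 2.

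Its relative Serpinb6b read 4.96, 4.26 and 4.35 in controls and 4.86, 5.18 and 5.21 in GHRH-KO mice. Control replicate 1 exceeded the lowest mutant, and the difference of 0.56 (SE 0.21) had an adjusted p of 0.227. Serpinb6e differed by 0.32 (adjusted p = 0.345), Serpinb9, the inhibitor of granzyme B in cytotoxic lymphocytes, by 0.14 (adjusted p = 0.761) and Serpinb9b by 0.24 (adjusted p = 0.512). The median over the 7 clade B genes was 0.56, and control replicate 2 was the lowest array in 5 of them. This median is the value of Serpinb6b, which reached the tested set only through its brighter genotype, so it is a description. Among the 15000 brightest probe sets, which leave Serpinb6b out, 4 clade B genes remained, all positive, with a median of 0.46. Without control replicate 2 the median was 0.35 with 6 of 7 positive, and without that array and GHRH-KO replicate 5 it was 0.27 with 5 of 7 positive, the exceptions being Serpinb9 and then Serpinb1a as well. Genes of the Serpinb6 and Serpinb9 families are close copies, so their probe sets may not be fully separate.

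**Figure D5:**
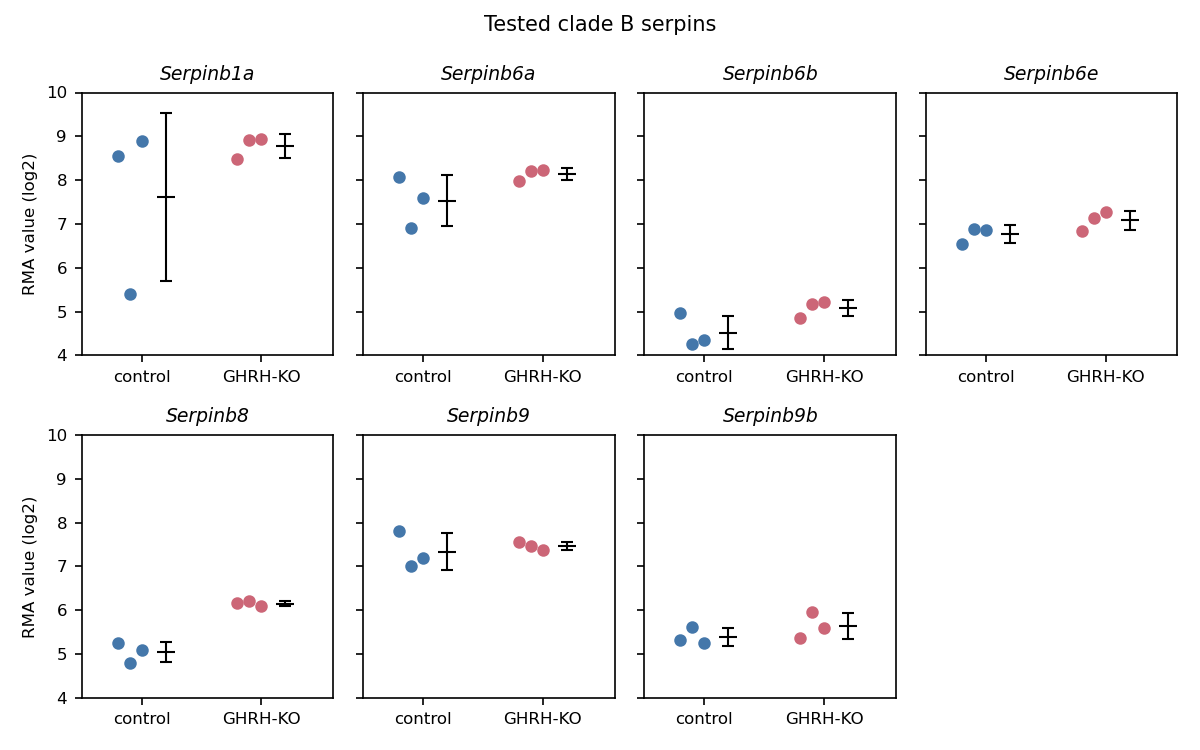
RMA values (log2, vertical axis) of the 7 tested clade B serpins in each array, with control in blue and GHRH-KO in red; the black bars are the mean and SD of 3 arrays. Only the Serpinb8 panel has groups that do not overlap, and the control SD of Serpinb1a reflects control replicate 2 at 5.41.

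Leukocytes and epithelia also express clade B serpins, and their markers were read beside these genes. The summed level of 8 neutrophil markers (log2 of the summed unlogged values) was 7.49 to 7.57 in controls and 7.59 to 8.08 in GHRH-KO mice. The ranges came close without overlap, and 0 of 3 tested were called. S100a9 differed by 0.84 (adjusted p = 0.178) and S100a8 by 0.72 (adjusted p = 0.345), while Elane, Mpo, Ltf, Camp and Ngp were at background. For 11 lymphocyte markers the sum was 8.12 to 8.36 in controls and 8.37 to 8.57 in GHRH-KO mice, with 0 of 4 tested called. The highest control sum, 8.3617, and the lowest GHRH-KO sum, 8.3652, were nearly equal. Coro1a differed by 0.66 (adjusted p = 0.494), and 7 of the 11 were at background, among them Ms4a1 and Nkg7, whose GHRH-KO arrays all lay above the controls. The part of these cells in the clade B values was not tested. Keratinocyte markers summed to 7.90 to 8.12 in controls and 8.06 to 8.27 in GHRH-KO mice and Kupffer cell or macrophage markers to 11.6 to 12.9 and 11.6 to 13.1, so both lists overlapped between genotypes. The macrophage marker Cd68 was at 1.19 (adjusted p = 0.155), with every GHRH-KO array above every control. No other marker of the macrophage list was so, and the median of that list was 0.31.

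The promoters of the raised genes Serpinb8 and Serpinh1 are shown for comparison with that of Serpina11. Both are the 250 bases before the RefSeq start (GRCm38.p6), at chr1:107589756-107590005 on the plus strand and chr7:99353240-99353489 on the minus strand. Neither holds TTCNNNGAA or GTTAATNAT. The other raised genes, Serpina6 and Spink1, had no promoter window and are not part of this comparison.
Serpinb8 promoter: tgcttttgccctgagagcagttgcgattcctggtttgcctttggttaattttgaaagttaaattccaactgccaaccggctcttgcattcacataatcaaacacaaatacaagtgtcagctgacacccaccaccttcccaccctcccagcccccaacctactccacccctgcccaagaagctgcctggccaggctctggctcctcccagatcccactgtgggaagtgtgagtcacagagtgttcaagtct
Serpinh1 promoter: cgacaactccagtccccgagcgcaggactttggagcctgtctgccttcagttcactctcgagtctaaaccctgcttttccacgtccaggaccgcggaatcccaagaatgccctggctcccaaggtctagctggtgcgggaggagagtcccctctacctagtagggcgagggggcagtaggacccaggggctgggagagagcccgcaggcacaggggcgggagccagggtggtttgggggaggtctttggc
Of these upstream sequences that of Serpinh1 had 63.6% G and C, that of Serpinb8 52% and that of Serpina11 49.2%. Serpinb6a, the other tested member with TTCNNNGAA, holds it as TTCCGGGAA beginning 77 bases before its start and again 20 bases after it. Serpinb6a was not called, with the difference of 0.61 given above, so the match occurred both in the lowered gene and in a gene that did not pass.

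Serpinh1, the only clade H member, was raised. It encodes the chaperone HSP47, which binds procollagen in the endoplasmic reticulum and inhibits no protease. Its values were 6.83, 6.88 and 6.96 in controls and 7.90, 8.09 and 7.89 in GHRH-KO mice. The groups lay well apart and each was tight (SD 0.07 and 0.11), with a difference of 1.07 (SE 0.11, adjusted p = 0.00795), or 2.1-fold. This probe set is of a kind that can hybridize to further transcripts. The gene's second probe set read 6.43, 6.01 and 6.27 in controls and 6.81, 6.01 and 6.97 in GHRH-KO mice, where replicate 5 was level with the lowest control, and its difference was 0.36 (SE 0.26, adjusted p = 0.487). The call of Serpinh1 therefore depends on which probe set is read, while with the brighter set it stood when any single array was left out (adjusted p of 0.0184 to 0.0424).

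Collagen genes were read beside this chaperone. Of 15 tested, none was raised and 1 was lowered, Col5a3 at -0.87 (adjusted p = 0.0465), while in 5 (Col5a1, Col5a2, Col6a1, Col6a2 and Col6a3) every GHRH-KO array lay above every control, beside 12.7% of all genes. Their median difference was 0.49. Of the main fibrillar collagens, Col3a1 was at 1.16 (SE 0.40, adjusted p = 0.199) and Col1a2 at 0.81 (adjusted p = 0.289). Col1a1 was level, at 0.01 (adjusted p = 0.968). The summed level of 11 stellate cell and fibroblast markers was 12.6 to 13.2 in controls and 12.9 to 13.3 in GHRH-KO mice with none called. Pdgfrb, a receptor of stellate cells and pericytes, lay above the controls in every GHRH-KO array (0.90, adjusted p = 0.0884). No other marker of this list did so, and the median of the list was 0.29. The part of these cells in the Serpinh1 value was not tested.

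Spink1, also known as Spink3, had the largest difference of the family. It encodes the pancreatic secretory trypsin inhibitor, which protects acinar cells of the pancreas from trypsin that becomes active too early. Its values were 4.10, 3.79 and 3.97 in controls and 9.71, 9.52 and 8.47 in GHRH-KO mice. All controls were at background and all mutants far above it, with GHRH-KO replicate 6 the lowest of these. The fitted difference was 5.28 (SE 0.31, adjusted p = 5.9e-04), and against the background edge of 4.75 the mutants were at least 22.4-fold higher. The call stood when any single array was left out, with differences of 5.04 to 5.66 and an adjusted p of at most 0.00833.

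None of 7 tested markers of pancreatic acinar cells was raised with Spink1, and 1 was lowered. Cela3b lay above the controls in every GHRH-KO array without being called (0.32, adjusted p = 0.212 from limma), and no other marker of the list did so. Of 14 measured, Cel, Cela2a, Cpb1, Pnliprp1, Prss3 and Ptf1a were at background in both genotypes, and Prss2, a trypsinogen, read 5.29 in controls and 5.30 in GHRH-KO mice on average. The summed level of the list was 10.8 to 11.5 in controls and 9.60 to 9.87 in GHRH-KO mice. It was carried by the elastase gene Cela1, which was lowered (-2.07, adjusted p = 0.0091).

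The second tested Spink gene, Spink4, a peptide of intestinal goblet cells, was not called. It read 7.05, 5.08 and 5.02 in controls and 4.88, 5.03 and 4.96 in GHRH-KO mice. Control replicate 1 alone stood above the rest, so the difference of -0.76 (SE 0.51, adjusted p = 0.461) became -0.10 without it. The duct markers Krt19 and Muc1 and the acinar marker Ctrb1 were also highest in that array, at 7.04, 7.06 and 8.41. No other array was above 4.97, 5.57 and 5.64 in them. The rest of these lists did not follow as a group. Epcam, Prss2, Cela3b and Ctrl were lowest in that array, and Sox9 and Krt7 were not highest in it. Cela1 and Rbpjl were highest in it by a small margin. The part of duct or acinar cells in the Spink4 value was not tested. The 6 remaining Spink genes (Spink2, Spink5, Spink8, Spink10, Spink12 and Spinkl) were not tested.

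The 23 members that were not tested lay at background in both genotypes, with array values of 2.72 to 4.76 and differences of -0.52 to 0.22. They were 4 genes of clade A, 11 of clade B, Serpini1 (neuroserpin) and Serpini2, and 6 Spink genes. In 3 of the 23 the groups did not overlap, 2 with GHRH-KO above and 1 below, which is no larger a share than the 12.7% and 15.7% of all genes tested. Serpinb9c was higher in GHRH-KO mice by 0.16 and Serpinb9d by 0.22, and Spink5, an inhibitor of skin proteases, differed by -0.52. Both groups were at background in each, so no fold is given.

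Further marker lists were read for the liver as a whole. Summed levels were 16.7 in every array for hepatocytes, 11.5 to 11.8 in controls and 11.5 to 11.9 in GHRH-KO mice for endothelial cells, 7.48 to 8.57 and 7.44 to 7.62 for cholangiocytes, and 7.94 to 8.16 and 7.94 to 8.01 for megakaryocytes or platelets, with no marker of these lists called. Erythroid markers summed to 10.7 to 11.2 in controls and 9.42 to 9.91 in GHRH-KO mice, carried by Alas2, the erythroid enzyme of haem synthesis, which was lowered (-1.36, adjusted p = 0.0219).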

How the data were processed

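Arrays of 3 GHRH-KO and 3 control livers, each a separate animal, were used, with genotype taken from the sample titles. The authors hybridized Affymetrix mouse genome arrays, computed RMA values and deposited them on the log2 scale for 45101 probe sets. The RMA version is not given in the sources used here, and the detection filter of the methods is not part of these values. Testing used the 25145 brightest probe sets by mean value, the number the methods give for their filter, after removal of 64 controls. It was done with limma 3.58.1 (lmFit and eBayes) in R 4.3.3 with Benjamini-Hochberg adjustment over all of them. The lowest mean tested was 4.64. The fit had no covariate, since the labels give no batch. RMA values carry no read depth, and the precision is limited by 3 arrays per genotype.

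A gene was read by the probe set of 1 gene with the highest mean. Of all probe sets 34945 had 1 gene, 932 several and 9160 were not listed in the platform annotation. All 47 members matched the RefSeq gene table (GRCm38.p6), which gave chromosome order, and 34 had a promoter window. By rule, full statistics went to called members, members with an unadjusted p under 0.05 whose groups did not overlap, and the 12 brightest; the other members are accounted for by values or counts. The members, gene lists and cell markers were chosen with earlier results of these data known. The highest Ghrh value set the background edge, against which a fold is given as a lower bound.

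Alternatives were the intensity filter, the choice of probe set, a second quantile normalization, median centring, array weights, a trended robust variance, other thresholds and the omission of each array. The fit was tested on simulated data. Plots and promoter searches used Python 3.11.15 and matplotlib 3.10.9.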

Additional observations from a re-analysis of the deposited data

How the results depend on the processing

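Another quantile normalization, median centring, array weights, a trended robust variance, no intensity filter, another choice or the mean of a gene's probe sets, no fold threshold and FDR < 0.10 each left 4 members raised and 1 lowered. With the 15000 brightest probe sets, and without probe sets of the suffix _x_at or _s_at, 3 were raised and 1 was lowered. Serpinb8 was not in the first of these sets, and Serpinh1 lost its call in the second (0.36, adjusted p = 0.487). Leaving out each array in turn gave 2 to 3 raised and 0 to 1 lowered. With control replicate 2 and GHRH-KO replicate 5 both left out, an alternative chosen after the data were seen, 2 were raised (Spink1 and Serpinh1) and 0 lowered. These fits have fewer arrays, so a lost call does not by itself show that a gene rests on an array. Over 423 values of tested members under 18 alternatives, 405 kept their side of the threshold, 18 lost a call, 0 gained one and 0 called values changed direction. Most of the 423 values belong to members that were not called. The 18 losses all fell on called members, with 7 in Serpina6, 6 in Serpina11, 4 in Serpinb8 and 1 in Serpinh1. No paired analysis was possible because the replicate numbers of the 2 groups are not shared. Signal over background limited Spink1, Serpina9, Serpinb6b and Serpina4-ps1, each with a group at background, and the 23 untested members.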
